A study of Homo sapiens with 8 samples.

Results

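The aminoacyl-tRNA synthetases are described here in LNCaP-FGC, a line of prostate cancer cells that depends on androgen, after 24 h with compounds aimed at the coactivators p300 and CBP. The members were 36 genes taken by name, 20 for cytosolic enzymes (no suffix) and 16 for mitochondrial enzymes (suffix 2). They were 36 of 16363 genes summed from the deposited transcripts, and all 36 passed the filter that left 11867 genes to test. The 4 groups of 2 RNA-seq libraries received the solvent DMSO, the bromodomain inhibitor I-CBP112, the acetyltransferase inhibitor A-485, or both compounds. All of them are the same line, and no dose is stated in the labels. Whether the libraries of 1 group came from separate cultures is not stated either, so a p-value speaks of spread that may be technical only.

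A synthetase joins an amino acid to its tRNA, the step that fixes which amino acid a codon stands for. Most amino acids are served by separate nuclear genes for the cytosolic and the mitochondrial enzyme, but GARS and KARS each encode both forms, and EPRS carries the glutamate and the proline enzyme in 1 chain. Many cytosolic synthetase genes are known targets of ATF4, which drives the integrated stress response (the program that answers amino acid shortage and unfolded protein). ATF4 and its C/EBP partners bind a composite DNA element, and p300 and CBP are coactivators that acetylate histones and transcription factors.

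Levels are given as scaled FPKM, the deposited fragments per kilobase of transcript scaled to a common total and by a trimmed mean of log ratios. Per library, the FPKM summed to 696917 to 808443 in replicate 1 and to 181486 to 408673 in replicate 2. An estimated 15.9 to 28.6 M (1e+06) and 4.44 to 13.5 M fragments lay on the listed transcripts. The estimated library sizes behind the FPKM overlapped, at 17.1 to 31.5 M and 15.8 to 27.3 M. The listed transcripts thus held 90.7 to 99.2% of the library size in replicate 1. In replicate 2 they held 22.6% (DMSO), 21.5% (bromodomain inhibitor), 33.8% (A-485) and 49.4% (combination). The effect of this uneven share on the results was not tested. A cytosolic member had a median of 3354 fragments in replicate 1 and 1023 in replicate 2, and a mitochondrial member 564 and 179. The 7 luminal prostate markers reported were all measured, with KLK3 at 2231 and 2006 scaled FPKM in the DMSO libraries, and 4 of the 7 (KLK3, KLK2, KRT18 and TMPRSS2) fell with A-485 and with both compounds. Of 4 stromal markers COL1A1 rose in both comparisons, COL1A2 and DCN were near 0, and the list summed to 14.9 to 25.9 with DMSO, 25.04 to 28.03 with A-485 and 23.7 to 24.99 with both. Of 3 neuroendocrine markers ENO2 and SYP rose with both compounds, CHGA was at or near 0, and the sums were 19.3 to 30.9 with DMSO, 35.8 to 38.2 with A-485 and 75.7 to 78.8 with both. Their part in the synthetase results was not tested.

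With A-485, 9 of the 20 cytosolic genes fell and none of the 16 mitochondrial genes passed the test in either direction. The genes that fell were AARS, CARS, GARS, IARS, MARS, SARS, VARS, WARS and YARS, with log2 fold changes from -0.93 to -1.71 (limma on log2(scaled FPKM + 1), adjusted p from 0.0076 to 0.0453, n = 2 libraries per group). With both compounds the same 9 genes fell and LARS joined them, which made 10 of 20, from -1.04 to -1.86 (limma, adjusted p from 0.0022 to 0.0251), and again 0 of 16 mitochondrial genes passed. Over all genes tested, 3.23% were called lower with A-485 and 7.13% with both compounds. No member was called higher against DMSO, where 1.21% and 3.38% of all genes were. For the mitochondrial class, limma gave an unadjusted p under 0.05 for 3 genes with A-485 and 1 with both, against 25.6% and 27.6% of all genes. Once the shared replicate number entered the fit as a block, limma called 2 mitochondrial genes lower with A-485 (CARS2 and MARS2) and 1 with both (MARS2). The block called 12 cytosolic genes lower with A-485 and 13 with both, against 9.29% and 12.1% of all genes. Voom, a limma test on approximate fragments, gave the same counts in both classes, and its share of all genes is not given here.

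The class medians lay apart in the same way. The cytosolic median log2 fold change was -0.76 with A-485 and -0.97 with both compounds, the mitochondrial median -0.15 and -0.07, and the median of all genes 0.01 and 0.04. In the cytosolic class 19 of 20 genes with A-485 and 18 of 20 with both had a value below 0, and in the mitochondrial class 11 of 16 in each. The direction of the mitochondrial median depends on the scaling: with a total of 1e+06 alone it was 0.16 and 0.15, while the cytosolic median stayed below 0, at -0.42 and -0.73. The scaling matters because the median gene shifted against DMSO by 0.35 with A-485 and 0.58 with both compounds in the FPKM as deposited, and by 0.31 and 0.25 with scaling to the total alone. Standard errors were alike in the classes, with medians of 0.21 and 0.22. The lesser fragment counts of the mitochondrial genes go with the class, and their part in the difference between the counts of calls was not tested.

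**Figure D1:**
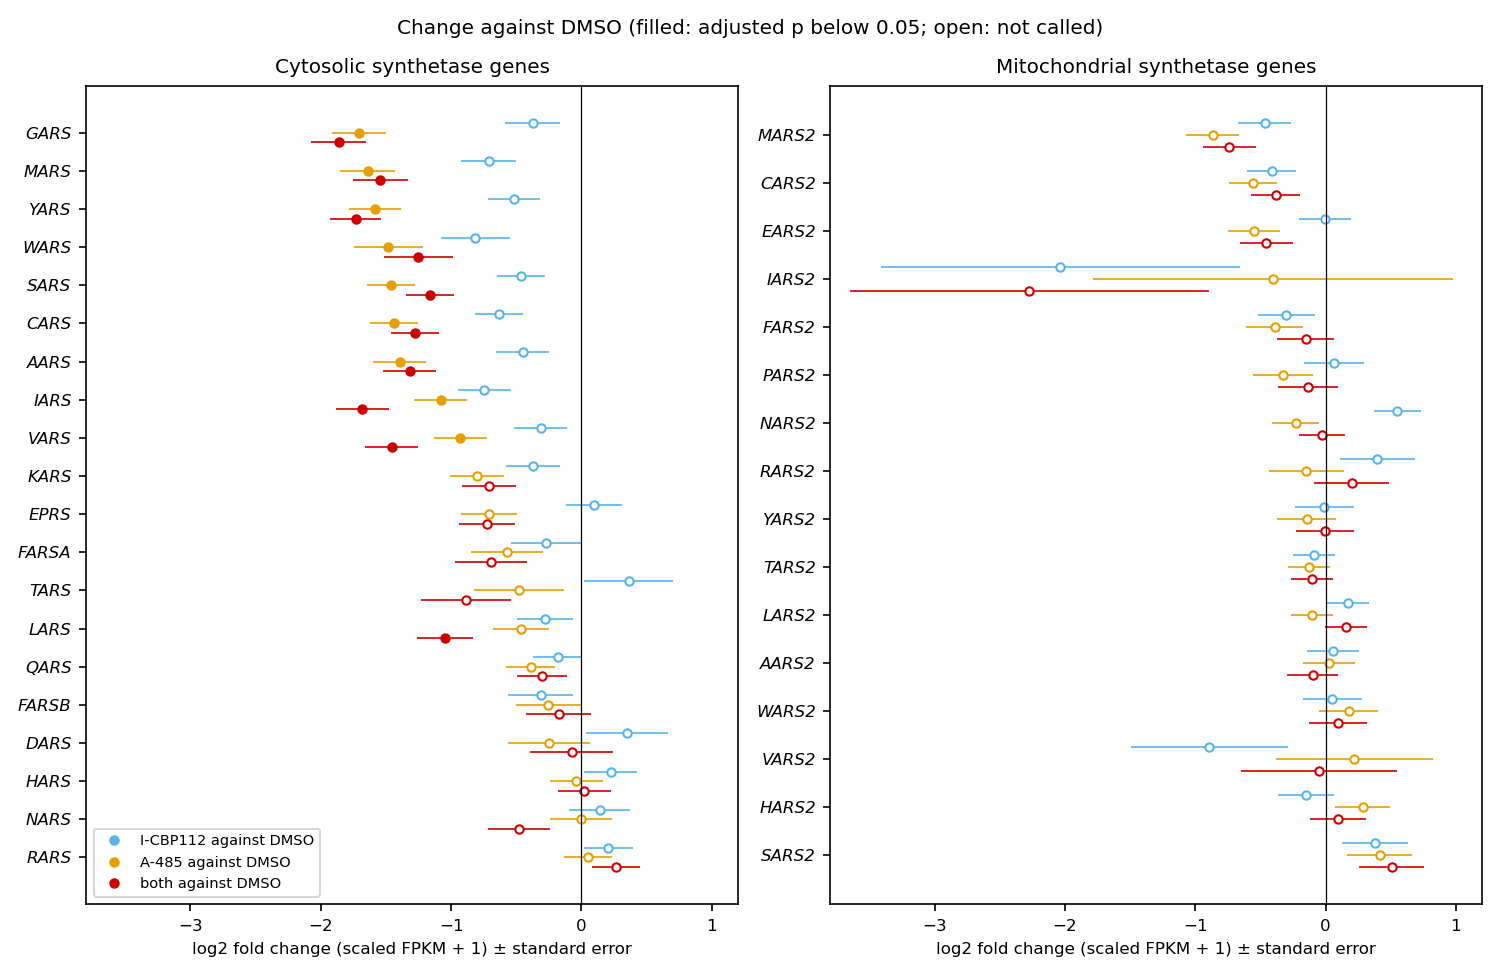
Log2 fold change of each synthetase gene against DMSO with its standard error (x axis), for I-CBP112, A-485 and both compounds, with the genes in order of the A-485 value (y axis). Filled points, adjusted p below 0.05, are all cytosolic, 9 with A-485 and 10 with both compounds.

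The gap between the classes can be read in every library. Across the cytosolic genes the mean log2 level exceeded that of the mitochondrial genes by 2.76 and 2.72 in the DMSO libraries, by 2.11 and 2.04 with A-485, and by 1.91 and 2.18 with both compounds. The ranges of the A-485 and the combination libraries did not overlap that of DMSO. With I-CBP112 the gap was 2.49 and 2.82, a range that held both DMSO values. IARS2 had very uneven values, and without it the gap was 2.66 and 2.76 with DMSO, 2.42 and 2.58 with I-CBP112, 2.00 and 2.07 with A-485, and 1.83 and 1.93 with both. Without IARS2, then, the I-CBP112 values also lay below both DMSO values, and above those of A-485 and of both compounds. The difference between the classes was described, not tested, since the members were chosen with earlier results of these data known.

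**Figure D2:**
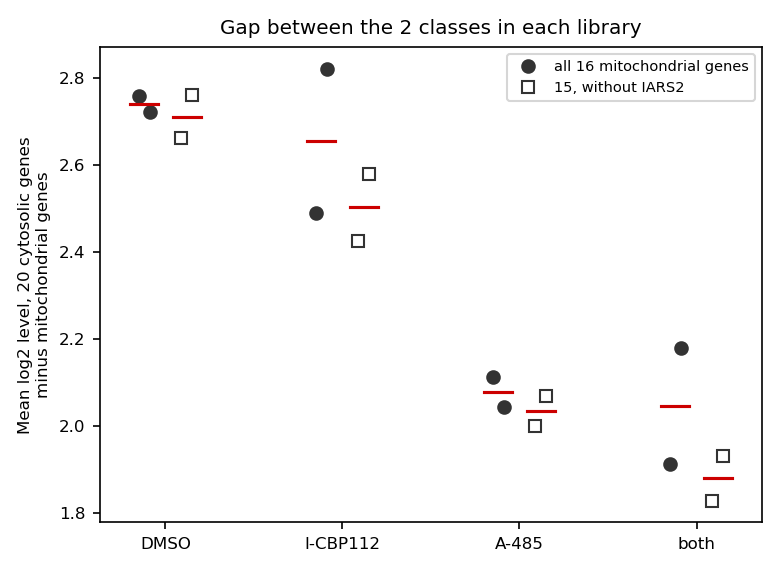
Mean log2 level of the 20 cytosolic genes minus that of the mitochondrial genes (y axis) in each of the 8 libraries by group (x axis). Circles use all 16 mitochondrial genes, squares 15 without IARS2, and red lines are means of 2 libraries. The A-485 and combination libraries sit at 2.18 or lower, and the DMSO libraries at 2.66 or higher.

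In DMSO the cytosolic genes were expressed more highly. Their median level was 156 scaled FPKM in replicate 1 and 139 in replicate 2, against 19.2 and 17.8 for the mitochondrial genes. AARS led with 437 ± 87.8 (SD, n = 2), followed by MARS with 360 ± 5.01 and SARS with 348 ± 41.9, neighbours that did not differ beyond their spread. The lowest cytosolic gene was FARSB, the beta subunit of the phenylalanine enzyme, with 2.56 ± 0.201, while FARSA, the alpha subunit, was at 190 ± 56.1. Among the mitochondrial genes CARS2 was highest with 49.2 ± 9.83, and WARS2 lowest with 2.29 ± 0.114.

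**Figure D3:**
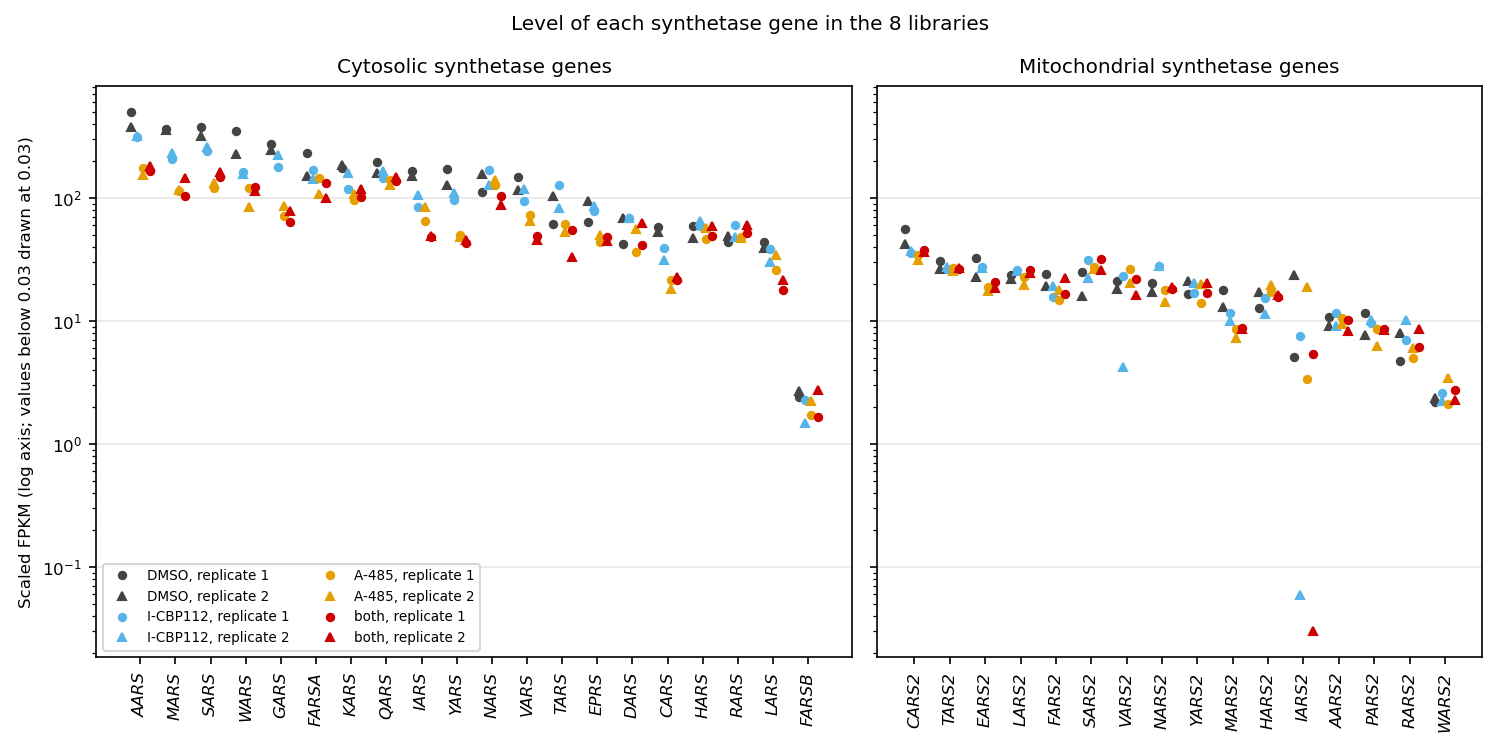
Scaled FPKM (y axis, log) of the 20 cytosolic and 16 mitochondrial genes (x axis, in order of the DMSO mean) in all 8 libraries, coloured by group, circles for replicate 1 and triangles for replicate 2. The IARS2 values near 0 are the lowest points, in replicate 2 of I-CBP112 and of both compounds.

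Several cytosolic genes carry the composite element that ATF4 and C/EBP proteins bind in their promoter windows, and the sequences are shown as a feature that the choice of members did not use. Windows of 300 bases (250 before and 50 after a gene's start) came from RefSeq on GRCh38.p14, for 30 of the 36 members. DARS, LARS, VARS, YARS, AARS2 and VARS2 had no entry. The letters TGATGNAA were searched on both strands. Below are 60 bases around each match in the cytosolic genes, read 5′ to 3′ along the gene, with the match in capitals. In all but NARS the match lies on the opposite strand and is therefore printed as its reverse complement.
GARS, chr7:30594819-30594878, plus strand: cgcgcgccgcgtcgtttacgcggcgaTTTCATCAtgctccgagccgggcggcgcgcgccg
MARS, chr12:57488038-57488097, plus strand: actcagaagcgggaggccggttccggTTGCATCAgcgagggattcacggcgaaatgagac
CARS, chr11:3057394-3057453, minus strand: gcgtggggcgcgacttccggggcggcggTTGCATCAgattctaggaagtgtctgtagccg
AARS, chr16:70289660-70289719, minus strand: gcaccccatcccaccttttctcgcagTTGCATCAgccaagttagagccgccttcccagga
IARS, chr9:92293677-92293736, minus strand: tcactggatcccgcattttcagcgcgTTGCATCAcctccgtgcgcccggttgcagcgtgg
TARS, chr5:33440935-33440994, plus strand: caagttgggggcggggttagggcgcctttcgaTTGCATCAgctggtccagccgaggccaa
NARS, chr18:57621807-57621866, minus strand: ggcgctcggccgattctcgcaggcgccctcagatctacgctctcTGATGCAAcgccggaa

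TGATGNAA was found in 7 of 16 cytosolic genes with a window and in 1 of 14 mitochondrial genes, YARS2. By window this was 7 of 21 (33.3%) and 1 of 18 (5.56%), against 1270 of 35116 windows in the whole RefSeq table (3.62%). The stricter TGATGCAA, contained in TGATGNAA, was in 6 of 16 cytosolic genes (GARS was the one without it), 0 of 14 mitochondrial genes and 0.866% of all windows. The cyclic AMP response element TGACGTCA was in no member's window and in 1.85% of all. Some genes had a further window from another annotated start, which in GARS and CARS held no match. Positions are counted from the annotated start of the window that held the match. Near that start, the match began 2 bases before it in CARS, 4 in MARS, 13 in IARS and 33 in GARS. It lay 187 bases before it in AARS, and in NARS and TARS it lay just past it. The YARS2 match, 197 bases before the start, is shown for contrast, since the gene was not called.
YARS2, chr12:32756061-32756120, minus strand: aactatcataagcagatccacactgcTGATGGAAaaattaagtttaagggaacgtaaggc

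Of the 7 cytosolic genes with the element, 5 fell with A-485 (AARS, CARS, GARS, IARS and MARS), and their median log2 fold change over all 7 was -1.39. Of the 9 without it, 2 fell (SARS and WARS), with a median of -0.57. With both compounds the counts were the same and the medians -1.32 and -0.69. Over all genes 3.23% were called lower with A-485 and 7.13% with both. With the strict letters, 4 of 6 cytosolic genes that held them and 3 of 10 that did not were called in each comparison. The called genes VARS and YARS, and LARS with both compounds, had no window and are not in these counts. NARS and TARS hold the strict letters and were not called, so the element and the calls did not coincide gene by gene. A match is a description of letters in a window and does not show that a factor binds there.

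**Figure D4:**
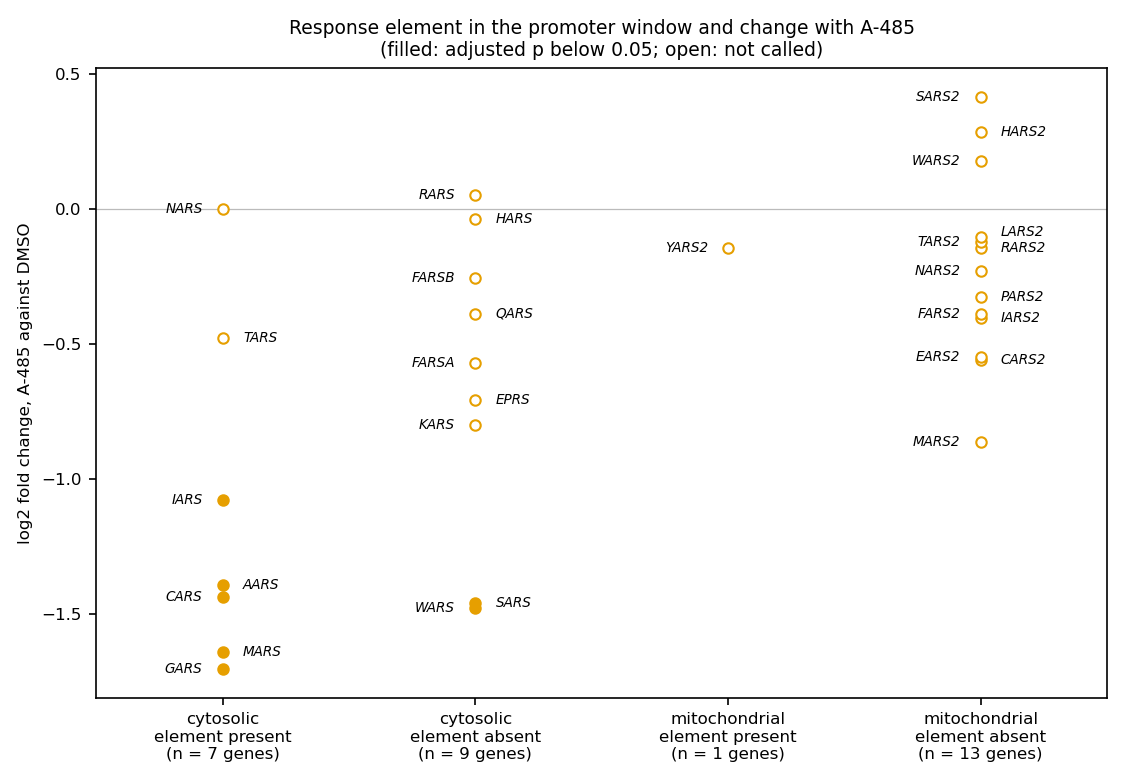
Log2 fold change with A-485 against DMSO (y axis) of the 30 members with a promoter window, by class and by presence of the response element (x axis). Filled points passed the test: 5 of 7 cytosolic genes with the element, 2 of 9 without it, and no mitochondrial gene.

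GARS, for glycine, fell most. Its level was 275 and 243 scaled FPKM in the DMSO libraries, 179 and 222 with I-CBP112, 71.6 and 86.5 with A-485, and 63.8 and 77.8 with both compounds. The A-485 and combination libraries all lay below the other 4, and log2 fold changes were -1.71 ± 0.21 and -1.86 ± 0.21 (SE; limma, adjusted p = 0.0076 and 0.0022). MARS, for methionine, which also charges the initiator tRNA, stood at 364 and 357 with DMSO, 207 and 232 with I-CBP112, 113 and 117 with A-485, and 104 and 146 with both. Its values with I-CBP112 lay between those of DMSO and of A-485 without overlap. The changes were -1.64 ± 0.21 with A-485 and -1.54 ± 0.21 with both (limma, adjusted p = 0.0087 and 0.00449). In MARS a transcript of 294 bases held 46.4% and 53.1% of the gene's FPKM in the DMSO libraries and 34.3% and 27.9% with A-485. With transcripts of at least 1000 bases only, the MARS changes were -1.36 and -1.38 and were called (limma, adjusted p = 0.00701 and 0.00309).

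YARS, for tyrosine, was at 172 and 128 with DMSO, 96.8 and 111 with I-CBP112, 49.9 and 47.8 with A-485, and 42.7 and 45.2 with both compounds. No library with A-485, alone or combined, reached the lowest other value. It changed by -1.58 ± 0.20 and -1.73 ± 0.20 (limma, adjusted p = 0.00845 and 0.00236). WARS, for tryptophan and known as an interferon-induced gene, was at 352 and 226 with DMSO, 163 and 157 with I-CBP112, 121 and 83.7 with A-485, and 123 and 113 with both. The DMSO libraries differed widely but still lay above every treated one. WARS changed by -1.48 ± 0.26 and -1.25 ± 0.26 (limma, adjusted p = 0.0257 and 0.0251).

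The other called genes moved in like manner. SARS (serine), CARS (cysteine) and AARS (alanine) changed with A-485 by -1.46 ± 0.18, -1.44 ± 0.18 and -1.39 ± 0.20, and with both compounds by -1.16, -1.28 and -1.32. IARS (isoleucine) changed by -1.08 ± 0.20 with A-485 and -1.68 ± 0.20 with both compounds. VARS (valine) changed by -0.93 ± 0.20 and -1.45 ± 0.20, and LARS (leucine) by -0.46 ± 0.21 and -1.04 ± 0.21. IARS was at 65.2 and 84.8 scaled FPKM with A-485 and at 48.1 and 49.2 with both, VARS at 72.5 and 64.4 against 49.4 and 45.1, and LARS at 25.8 and 34.3 against 17.7 and 21.6. The difference between both compounds and A-485 did not pass for IARS (-0.60 ± 0.20), LARS (-0.58 ± 0.21) or VARS (-0.52 ± 0.20; limma, adjusted p = 0.293, 0.341 and 0.360). Of the 20 cytosolic genes, 9 had a value below 0 in this comparison, GARS, YARS and NARS also among them, and 11 above 0.

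In all, 10 cytosolic genes were called against DMSO in neither the A-485 nor the combination comparison. KARS (lysine) was at 173 and 185 with DMSO, 119 and 161 with I-CBP112, 96.6 and 108 with A-485, and 101 and 118 with both. EPRS was at 63.6 and 93.6, 78.7 and 86.7, 44.2 and 49.5, and 47.9 and 44.9 in the same order. FARSA was at 230 and 151, 169 and 141, 146 and 107, and 132 and 99.5. These 3 genes had all A-485 and combination libraries below both DMSO libraries, and they passed with the replicate block. Among all genes, 26% had both A-485 libraries and 26.6% both combination libraries below DMSO, and the joint share is not given here. With A-485, KARS stood at -0.80 ± 0.21, EPRS at -0.71 ± 0.22 and FARSA at -0.57 ± 0.28 (limma, adjusted p = 0.0667, 0.0948 and 0.238, and 0.016, 0.0383 and 0.0361 with the block). With both compounds they stood at -0.71, -0.72 and -0.69 (limma, adjusted p = 0.0661, 0.0713 and 0.149, and 0.0133, 0.0269 and 0.0147 with the block). KARS and EPRS also passed with voom (adjusted p = 0.0221 and 0.0363 with A-485, 0.0298 and 0.0327 with both). With transcripts of at least 1000 bases KARS passed too (limma, adjusted p = 0.0365 with A-485 and 0.0316 with both).

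Among the other 7, replicates varied or levels moved little. QARS (glutamine) was at 195 and 158 with DMSO, 146 and 164 with I-CBP112, 140 and 128 with A-485, and 137 and 148 with both, every A-485 and combination value below both DMSO values, at -0.39 ± 0.19 with A-485 (limma, adjusted p = 0.238). NARS (asparagine) was at 113 and 157, 170 and 127, 126 and 140, and 103 and 87.7. Its A-485 values lay inside the DMSO range, and its combination values below it, at -0.48 ± 0.24 (limma, adjusted p = 0.232). TARS (threonine) was at 60.9 and 104, 128 and 82.5, 61.2 and 52.9, and 54.6 and 33.2. TARS overlapped DMSO with A-485, where it stood at -0.48 ± 0.34 (limma, adjusted p = 0.413). A transcript of 466 bases held 34.0% and 57.1% of its FPKM in the DMSO libraries, and with transcripts of at least 1000 bases TARS was called lower, at -0.69 with A-485 and -0.80 with both (limma, adjusted p = 0.0383 and 0.0143).

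HARS, RARS, DARS and FARSB had A-485 values from -0.26 to 0.05, none called. RARS (arginine) was at 43.9 and 48.6 with DMSO, 59.7 and 47.9 with I-CBP112, 48.5 and 47.3 with A-485, and 51.7 and 59.8 with both. It had the highest value of its class with A-485, 0.05 ± 0.18, with a 95% interval of -0.37 to 0.48. HARS (histidine) was at 59.5 and 47.4, 59.5 and 65.1, 46.6 and 57.2, and 49.0 and 59.3, with A-485 and DMSO values overlapping. DARS (aspartate) was at 41.8 and 68.8, 68.6 and 68.96, 36.3 and 55.98, and 41.4 and 62.5. FARSB was at 2.42 and 2.70, 2.29 and 1.495, 1.73 and 2.24, and 1.65 and 2.74, and its low level limits what could be seen.

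MARS2, for mitochondrial methionine, had the lowest value of its class with A-485. It was at 17.9 and 12.9 in the DMSO libraries, 11.5 and 10.01 with I-CBP112, 8.59 and 7.25 with A-485, and 8.82 and 8.59 with both. All 6 treated libraries lay below both DMSO libraries. Its values of -0.87 ± 0.20 and -0.74 ± 0.20 missed the threshold (limma, adjusted p = 0.0544 and 0.0557) and passed it with the block (limma, adjusted p = 0.0217 and 0.021). CARS2 was at 56.1 and 42.2, 35.8 and 36.8, 34.4 and 31.1, and 37.9 and 36.3 in the same order, again with every treated library below DMSO. It stood at -0.56 ± 0.19 with A-485 (limma, adjusted p = 0.115, and 0.048 with the block) and -0.38 ± 0.19 with both (limma, adjusted p = 0.225).

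At the other end of the mitochondrial class stood SARS2, at 24.8 and 16.1 with DMSO, 31.1 and 22.2 with I-CBP112, 27.6 and 26.4 with A-485, and 31.8 and 26.1 with both. Its A-485 value was 0.42 ± 0.25 (limma, adjusted p = 0.333), while SARS for the same amino acid fell. IARS2, listed as a single transcript, was at 5.10 and 23.8, 7.51 and 0.0596, 3.35 and 18.9, and 5.35 and 0.0161. The low values in replicate 2 of I-CBP112 and of both compounds left a standard error of 1.38, too wide to read a change. VARS2 had 1 low library, 4.19 in replicate 2 of I-CBP112 against 23.1 in replicate 1. With A-485 the remaining 12 genes of the class lay between -0.55 (EARS2) and 0.28 (HARS2). TARS2 (-0.12 ± 0.16), LARS2 (-0.10 ± 0.16) and AARS2 (0.02 ± 0.20) were among those nearest 0.

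The enzymes for the same amino acid made 17 pairs, with EPRS set against EARS2 and PARS2, and FARSA and FARSB against FARS2. The cytosolic log2 fold change was lower than the mitochondrial one in 14 of 17 pairs with A-485, in 15 with both compounds and in 10 with I-CBP112. The median difference was -0.38, -0.79 and -0.19. The widest A-485 gap was that of SARS and SARS2, -1.88, followed by WARS and WARS2 with -1.66 and YARS and YARS2 with -1.44. The exceptions with A-485 were NARS, RARS and FARSB. Pairs that share a member are not independent.

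**Figure D5:**
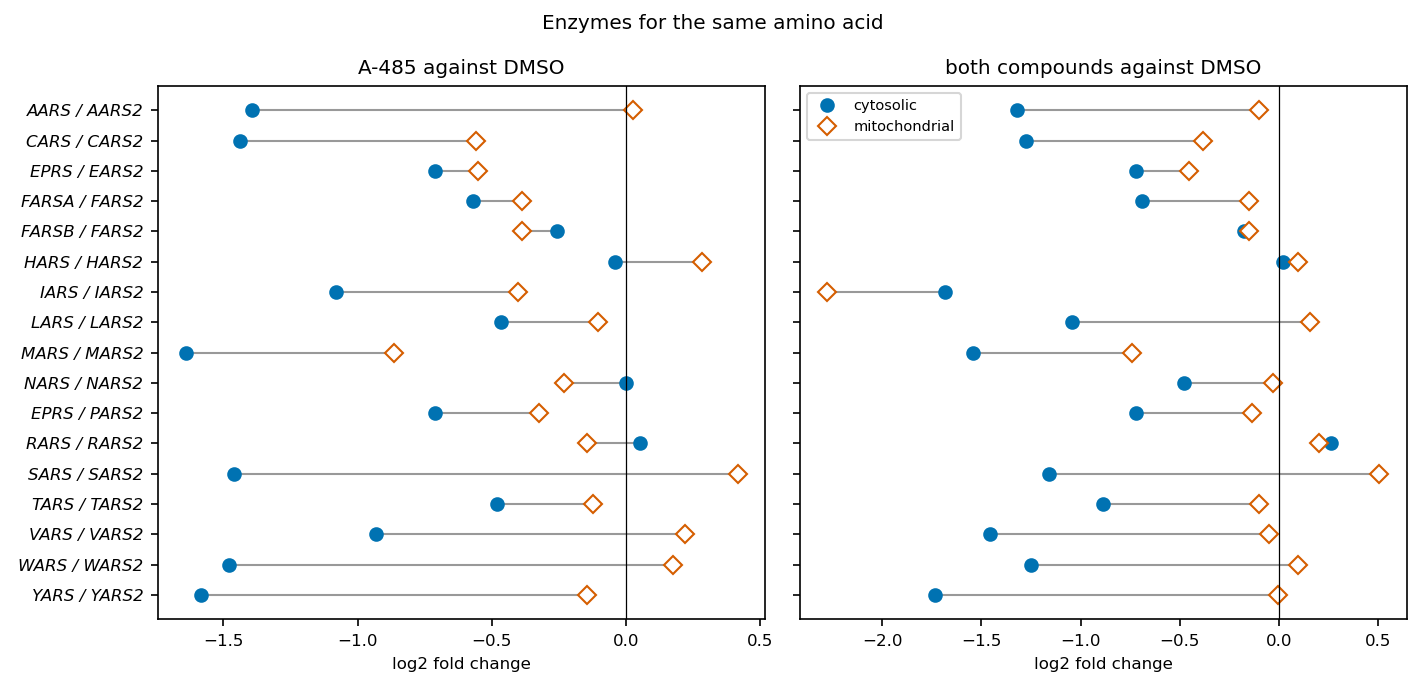
Log2 fold change against DMSO (x axis) of the cytosolic (filled circle) and mitochondrial (open diamond) enzyme for each amino acid (y axis), with A-485 and with both compounds. The cytosolic value is the lower one in 14 of 17 pairs with A-485 and in 15 of 17 with both.

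HARS and HARS2 lie head to head, and their annotated starts are 85 bases apart on opposite strands. Neither was called, at -0.04 ± 0.20 and 0.28 ± 0.21 with A-485. The shared stretch, up to 30 bases past each start, is printed along the plus strand, which is that of HARS2, and holds none of the 3 motifs. The genes run away from each other, so their windows overlap but transcripts from these annotated starts do not. The labels do not state a stranded library, so where transcripts on opposite strands do overlap, their reads cannot be told apart.
HARS2 and HARS, chr5:140691341-140691484: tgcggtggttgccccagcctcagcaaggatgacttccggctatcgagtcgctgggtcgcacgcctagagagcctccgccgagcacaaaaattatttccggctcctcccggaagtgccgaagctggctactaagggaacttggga

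Within the cytosolic class, the 8 enzymes of the multisynthetase complex (an assembly that holds several synthetases on scaffold proteins) included 2 called genes with A-485 and 3 with both compounds, with medians of -0.59 and -0.72. The 12 outside it included 7 in each comparison, with medians of -1.16 and -1.21. With the replicate block the calls were 4 and 5 of the 8 inside the complex and 8 and 8 of the 12 outside it. By catalytic fold, class I held 6 and 7 called genes of 10 with medians of -1.0 and -1.26, and class II 3 and 3 of 10 with medians of -0.52 and -0.70. The block gave 7 and 8 calls in class I and 5 and 5 in class II. Over all genes 3.23% and 7.13% were called lower, and 9.29% and 12.1% with the block. These differences between subsets were not tested.

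With I-CBP112 alone no member was called, as was true of all 11867 genes (0%), of which 1313 (11.1%) had an unadjusted p under 0.05 by limma. The cytosolic median was -0.31 and the mitochondrial median -0.01. Limma gave an unadjusted p under 0.05 for 6 cytosolic and 1 mitochondrial gene, and neither the replicate block nor voom called any. WARS (-0.82 ± 0.26), IARS (-0.74 ± 0.20), MARS (-0.71 ± 0.21) and CARS (-0.63 ± 0.18) had the lowest cytosolic values (limma, adjusted p from 0.323 to 0.355). With transcripts of at least 1000 bases only, the MARS value was -0.38 (limma, adjusted p = 0.455). In 11 of 20 cytosolic and 3 of 16 mitochondrial genes both I-CBP112 libraries lay below both DMSO libraries, against 18.5% of all genes. The same count with A-485 was 15 and 4, against 26%, and with both compounds 16 and 3, against 26.6%.

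Between the treatments, GARS was lower with A-485 than with I-CBP112, by -1.33 ± 0.21 (limma, adjusted p = 0.0344), and was the single member called, with 0.775% of all genes called lower. With the replicate block AARS, CARS, MARS, SARS, YARS and the mitochondrial NARS2 (-0.78 ± 0.18) were also called lower, and 2.37% of all genes. Both compounds against I-CBP112 gave GARS (-1.49 ± 0.21), YARS (-1.22 ± 0.20) and VARS (-1.14 ± 0.20; limma, adjusted p = 0.0133, 0.0243 and 0.0324), with 2.01% of genes lower. With the block 9 cytosolic genes were called, adding AARS, CARS, EPRS, IARS, MARS and SARS, with 4.37% of genes lower.

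Adding I-CBP112 to A-485 gave no called member (0.733% of all genes lower), although limma gave 3 cytosolic genes, IARS, LARS and VARS, an unadjusted p under 0.05, against 12.2% of all genes. Voom and the replicate block called none (1.1% of all genes lower with the block). The cytosolic median of this comparison was 0.07 and the mitochondrial 0.11. The interaction, which sets the combination against the added effects of the single compounds, called 0 members and 0% of genes, and with the block 0 members and 0.0843% of genes lower. Its lowest adjusted p was 0.490 for CARS, at 0.80 ± 0.26 (limma). WARS, MARS and SARS were the other cytosolic genes with an unadjusted p under 0.05 by limma, at 1.05 ± 0.37, 0.81 ± 0.30 and 0.77 ± 0.26, against 8.92% of all genes under that threshold, and voom called none.

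The wider pathway was read from gene lists. In the integrated stress response list, 26 of 41 tested genes fell with A-485 and 29 with both compounds, with medians of -1.39 and -1.44. Over all genes tested, 3.23% and 7.13% were called lower. With the replicate block 31 and 33 genes of the list were called lower, against 9.29% and 12.1% of all genes. With I-CBP112, 0 genes of the list were called, as over all genes (0%), and the list's median was -0.40. ATF4 itself was at 1061 and 872 in the DMSO libraries, 682 and 805 with I-CBP112, 308 and 395 with A-485, and 297 and 386 with both. It fell by 1.46 ± 0.24 on the log2 scale with A-485 (limma, adjusted p = 0.0177) and by 1.5 ± 0.24 with both (limma, adjusted p = 0.00797). CHAC1, a glutathione-degrading enzyme, went from 102 and 74.5 with DMSO to 10.4 and 7.39 with A-485, a change of -3.17 ± 0.22. The amino acid transporter SLC1A5 (-2.50 ± 0.33), the ATF4 inhibitor TRIB3 (-2.45 ± 0.29), the serine synthesis enzyme PSAT1 (-2.45 ± 0.21) and the asparagine synthetase ASNS (-2.27 ± 0.24) followed (limma, adjusted p from 0.00288 to 0.00941 for these 5).

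Of 12 tested partners of tRNA charging, 2 fell with A-485 and 2 with both compounds (limma), against 3.23% and 7.13% of all genes. AIMP2, a scaffold of the multisynthetase complex, went from 149 and 140 with DMSO to 61.7 and 65.2 with A-485 (-1.18 ± 0.20; limma, adjusted p = 0.0198). AARSD1, an editing factor for mischarged alanine tRNA, changed by -0.92 ± 0.19 (limma, adjusted p = 0.0399). The other scaffolds were not called, AIMP1 at 0.35 ± 0.29 and EEF1E1 at -0.01 ± 0.22. Nor were the proofreading enzymes DTD1 (-0.34) and DTD2 (-0.11), or SEPSECS (0.27) and PSTK (-0.01), which make selenocysteine on its tRNA. The mitochondrial glutamine amidotransferase genes QRSL1 (-0.04), GATB (-0.32) and GATC (-0.60) and the formyltransferase gene MTFMT (-0.12) did not pass either. With the replicate block PSTK was called higher with both compounds, at 0.59 (limma, adjusted p = 0.0399), where 8% of all genes were.

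Among tRNA processing and modification genes 3 of 39 fell with A-485 and 7 with both compounds. The 3 were XPO5, a nuclear export receptor (-1.27 ± 0.17), TRMT61A, a tRNA methyltransferase subunit (-1.12 ± 0.22), and DUS3L, a dihydrouridine synthase (-0.95 ± 0.16; limma, adjusted p = 0.00998, 0.0346 and 0.0198). FTSJ1, METTL1, TRMT1 and WDR4, all for tRNA methylation, joined them with both compounds. Fitting the block gave 8 lower calls among the 39 for A-485 and 13 for the combination, which also had 2 higher calls (POP4 and TSEN34). The mitochondrial translation factors gave 0 of 11 in each comparison by limma, with medians of 0.25 and 0.06, and the block called MRRF lower in both comparisons and C12orf65 with both compounds. Over all genes 3.23% and 7.13% were called lower without the block, and 9.29% and 12.1% with it. The block called 8% of all genes higher with both compounds.

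Each of the 9 A-485 calls was lost when 1 of the A-485 libraries was left out. Such a fit left a group with 1 library, assumed to vary like the other groups. The share of all genes called in such fits is not given here, so the losses cannot be set against it. With both compounds GARS, IARS, MARS, VARS and YARS kept their calls whichever library was left out, and the other called genes did not. WARS and VARS were not called with A-485 when the filter on low values was dropped (limma, adjusted p = 0.0547 and 0.0685), nor IARS and VARS when libraries were scaled to the total alone (0.055 and 0.0829). With both compounds WARS was not called without the filter (0.0503), nor LARS with scaling to the total (0.0659).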

How the data were processed

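RNA was sequenced in 8 libraries, 2 per group. The authors deposited 1 table of 81591 transcripts, whose values are FPKM that the authors made by dividing fragments by transcript length and library size, as read from the deposited values: 78.3% are not whole numbers, although the table's name says counts, and low values are steps of 1 fragment that shrink as transcripts lengthen (75.6 to 84.6% within 0.1 of a fragment). Named in the submitters' processing notes are Cufflinks, STAR, DESeq2, DESeq, GRCh37 and hg19, without version or role. By Ensembl identifier 74209 transcripts (91.0%) matched GENCODE release 29, used for names and lengths only, and were summed per gene. Libraries were scaled to 1e+06 and by a trimmed mean of log ratios (30% of ratios and 5% of levels trimmed).

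Genes at 1 or more in at least 2 libraries were compared on log2(scaled FPKM + 1) in limma 3.58.1 (R 4.3.3), 1 mean per group and trended, robust variances over 4 residual degrees of freedom, two-sided, Benjamini-Hochberg adjusted over 11867 genes at 0.05. The pseudocount understates changes of low genes. The fit was tested on simulated data, drawn independently for each library around each gene's mean. The draw held no correlation between libraries of the same replicate number and no difference in depth. It therefore cannot show how the fit handles those features of the real libraries.

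Libraries of the same replicate number share a prefix in their labels, and their deviations from the group means correlated in all 6 pairs of groups (r from 0.145 to 0.425), so the number was taken as a pairing and fitted as a block in an alternative. The members and lists were chosen with earlier results of these data known. Per-library values were given for the 4 cytosolic and 2 mitochondrial genes lowest with A-485, the highest of each class, and the cytosolic genes never called against DMSO, and from each list for ATF4 and up to 5 called genes with the largest A-485 change; other per-library values were added after they were seen. A few genes of the marker and partner lists are not reported here.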

Additional observations from a re-analysis of the deposited data

How the results depend on the processing

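Alternatives were another pseudocount, filters, scalings, the replicate block, fits of the compared groups alone, voom, protein-coding transcripts, and each library left out. Transcripts of at least 1000 bases, and the class gap without IARS2, were chosen after seeing the data. No result changed sign while called. For A-485 against DMSO, 4 cytosolic genes were called when only those groups were fitted. Of the mitochondrial genes, 2 were called with the replicate block, 2 with voom and 1 with transcripts of at least 1000 bases. For both compounds against DMSO, each of these 3 settings called 1 mitochondrial gene. For both against I-CBP112, cytosolic calls went from 3 to 9 with the replicate block, 7 with the longer transcripts and 7 with voom. For A-485 against I-CBP112 they went from 1 to 6, 5 and 7 in the same order, and to 0 without the filter, with scaling to the total alone, or with those groups alone, while 1 mitochondrial gene was called with the block. The block moved the other counts over the whole cytosolic or mitochondrial class by less than 1.5 times, and larger moves within subsets and lists stand beside those counts. Leaving out 1 library gave 0 to 9 cytosolic and 0 to 3 mitochondrial calls with A-485, 5 to 10 and 0 to 1 with both compounds, 0 to 5 cytosolic calls for both against I-CBP112, and 0 to 2 for A-485 against I-CBP112. Fits that leave out libraries or groups hold fewer samples, and the cause of the other changes was not tested. The low fragment counts of replicate 2 and of FARSB, WARS2 and IARS2 limit what could be detected, and 2 libraries per group leave wide intervals.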
